A study of Mus musculus with 4 samples.

Results

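The cells described here are monocytes and monocyte progenitors from mouse bone marrow, 3170 of the 37717 cells kept from a single-cell RNA series of 6 mice. They were chosen on measured values, by a rule called the gate in the plots. All of them are called monocytes below for short, including progenitors with little RNA of mature monocyte genes. A kept cell entered when at least 3 of the 6 genes Csf1r, Ccr2, F13a1, Ms4a6c, Ly6c2 and Klf4 each had at least 1 UMI (a counted RNA molecule) and when Siglech, Ms4a1, Ly6g and Car1, genes of other blood lineages, had none. Of 3412 cells with at least 3 markers, 242 were removed by the second condition, 173 of them with a Car1 UMI and 47 with a Ly6g UMI.

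Monocytes arise in the marrow from granulocyte-monocyte progenitors, which divide and make primary granule enzymes such as myeloperoxidase before they lose Kit and turn on lysosomal, adhesion and S100 genes. The transcription factors PU.1 and Irf8 and the receptor for the growth factor Csf1 direct this step. Classical Ly6c-high monocytes leave the marrow with the help of the chemokine receptor Ccr2, and part of them convert into non-classical Cx3cr1-high patrolling monocytes.

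All 6 mice were female, 6 weeks old and of the genotype Tppp3CreER LSLTdTomato, in which tamoxifen lets a Cre recombinase made in Tppp3-expressing cells switch on a red reporter. Of these, 2 mice had tamoxifen at P0 and P3 (postnatal days 0 and 3), 2 had tamoxifen with rapamycin, an inhibitor of the mTOR kinase, on the same days, and 2 had rapamycin alone at P30 and no tamoxifen, here called late rapamycin. Late rapamycin mice therefore differed from tamoxifen mice in both drugs and in the time of injection, and no untreated or vehicle mouse was analysed. Each processing day held 1 mouse of each treatment, numbered replicate 1 on day 1 and replicate 2 on day 2, so every p-value rests on 2 mice per treatment. The gene tests below take their spread from a fit of all 6 mice, shared in part between genes. Mice outside a comparison therefore also enter its p-values. The cells mixed Lin-Sca+Kit+, Lin-Sca-Kit+ and whole marrow cells in proportions not given for each mouse, which can set any share of cells. The design text speaks of isolation after 2 weeks and the labels of an age of 6 weeks, so the time from each injection to isolation is uncertain. Reporter and Cre were not among the measured features, so labelled and unlabelled cells were not separated.

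Each cell was assigned to its mouse by an antibody-borne DNA hashtag, and the 6 designed tags, 5′ to 3′ in lower case, are shown because every comparison rests on them.
Tamoxifen replicate 1: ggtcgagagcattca
Tamoxifen replicate 2: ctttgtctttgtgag
Tamoxifen with rapamycin replicate 1: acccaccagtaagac
Tamoxifen with rapamycin replicate 2: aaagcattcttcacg
Late rapamycin replicate 1: cttgccgcatgtcat
Late rapamycin replicate 2: tatgctgccacggta
The leading tag held a median of 95.8 to 98.6% of a monocyte's hashtag UMIs in the 6 mice. These treatments follow the hashtag table, which gives tags 1 and 4 to tamoxifen with rapamycin and tags 2 and 5 to tamoxifen. The sample labels number the mice the other way round. If those mouse numbers are tag numbers, both tamoxifen treatments are exchanged, and every difference between them below has the opposite sign. The late rapamycin mice are the same in both.

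Day 1 had 25058 barcodes, day 2 had 21409, and 126 barcode sequences occurred in both, 75 of them in kept cells. Monocytes contributed between 2459571 and 7526170 UMIs per mouse, and their median depth of 5801 to 8335 UMIs per cell exceeded that of the other kept cells, 2879 to 4284. One mouse stood apart. Late rapamycin replicate 1 gave 906 monocytes, against 345 to 551 in the other mice, and its monocytes carried 7035 CPM of 12 neutrophil markers together (in CPM, the usual scaling of a gene's UMIs by the summed UMIs of the same cells, here the mouse's monocytes) against 621 to 1848 CPM elsewhere. All 12 were detected in monocytes, and the part of neutrophil RNA in the results was not tested, so results that rest on this mouse are given with and without it. The lineage markers of other cells were lower in monocytes than in the remaining cells of each mouse for B cells, 233 to 375 CPM, for erythroid cells, 31.6 to 264 CPM, and for T and NK cells, 0.877 to 13.4 CPM. Megakaryocyte markers summed to 3.66 to 5.85 CPM, with Gp1bb and Ppbp of the 6 at 0. Basophil and mast cell markers were lower too, except in tamoxifen replicate 2, where monocytes had 116 CPM and other cells 93.4 CPM. Dendritic cell genes were lower except in late rapamycin replicate 2, at 403 against 382 CPM. Macrophage genes were lower only in late rapamycin replicate 1, at 79.2 against 94.1 CPM. In the other mice they were higher in monocytes, 93.0 to 134 CPM against 83.3 to 87.9 CPM.

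The markers bore out the label in part. Over all mice Ccr2 had a UMI in 83.6% of the chosen cells and 5.46% of the other kept cells. F13a1, the coagulation factor XIII subunit made by monocytes, reached 953 CPM in the chosen cells and 21.9 CPM elsewhere. Csf1r, the defining receptor, had a UMI in 44.6% of the chosen cells against 2.26%, and Klf4, a transcription factor of maturing monocytes, in 23.3%. These genes made the choice, so the values are descriptions. Of cells chosen with at least 3 of the remaining 5 markers, 79.9% had a Ccr2 UMI and 40.3% a Csf1r UMI. Ly6c2 averaged 1065 CPM, but its reads can be confused with those of its near-identical copy Ly6c1.

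The threshold of 3 markers cut through a graded series, as the plot of genes by marker number shows. Just outside it lay 1731 cells with 2 markers, of which 28.4% had an Irf8 UMI, 15.4% a Ly86 UMI and 1.04% a Fn1 UMI. Just inside lay 940 cells with 3 markers, with 49.2% for Irf8, 40.7% for Ly86 and 6.49% for Fn1. Among the 286 cells with all 6 markers the shares were 71.3% for Irf8, 86.0% for Ly86 and 68.5% for Fn1. Mpo went the other way, from 87.2% of cells with 3 markers to 42.7% of cells with 6, and Kit from 58.2% to 10.5%. Median depth was 8316 UMIs at 3 markers and 5316 at 6, and its part in these shares was not tested.

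**Figure D1:**
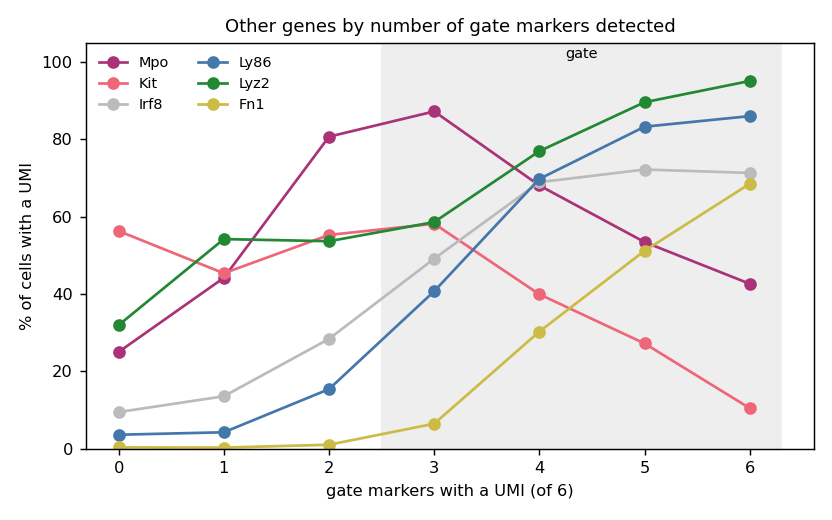
Share of kept cells with at least 1 UMI of each gene (y axis, %) by the number of the 6 chosen markers detected (x axis), over all 6 mice, with cells of 3 or more markers shaded. Ly86, Lyz2 and Fn1 rose from 3 to 6 markers, Irf8 rose to 72.2% at 5 and stood at 71.3% at 6, and Mpo and Kit fell.

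Outside the genes of the rule, the chosen cells were led by Fn1, the matrix protein fibronectin, at 267 CPM against 2.45 CPM in other cells. S100a4, a calcium-binding protein of motile myeloid cells, stood at 224 against 10.4 CPM. Ly86, the partner of the Toll-like receptor homologue Cd180, stood at 230 against 21.1 CPM, and the lysosomal protease Ctss at 282 against 27.7 CPM. Irf8 was 6.24 times its level in other cells. Among the 25 leading genes were also the granule genes Mpo at 4312 CPM, Prtn3 at 5168 CPM, Elane at 4216 CPM and Ctsg at 2040 CPM, between 4.19 and 4.89 times the other cells. These contrasts follow from the choice of cells and carry no test.

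The granule genes and the monocyte genes were highest in different cells. A monocyte was called granule-rich when Mpo, Elane, Prtn3 and Ctsg together held at least 0.5% of its UMIs, which took 1804 cells, 56.9%, and left 1366 granule-poor. The cut divides a range: 484 cells lay between 0.25 and 1%, and 588 had no granule UMI. Granule-poor cells had Lyz2, the lysozyme of mature myeloid cells, at 9769 CPM against 277 CPM in granule-rich cells. Fn1 stood at 1060 against 8.82 CPM and S100a4 at 863 against 17.0 CPM. Ms4a3, a gene of granulocyte-monocyte progenitors, stood at 27.2 CPM in granule-poor cells and at 928 CPM in granule-rich cells. Kit, the stem cell factor receptor, stood at 47.1 and 122 CPM in the same order. Irf8 was closer between them, 344 and 265 CPM.

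Upstream sequence from RefSeq (GRCm38.p6) is shown for 1 surface marker and 1 granule protease of these programs, with the motif AGGAAGT, an ETS-type core like that bound by PU.1, in capitals, each window being the 250 bases before the start, 5′ to 3′ on the gene's strand.
Ly6c2, chr15:75111972-75112221, minus strand: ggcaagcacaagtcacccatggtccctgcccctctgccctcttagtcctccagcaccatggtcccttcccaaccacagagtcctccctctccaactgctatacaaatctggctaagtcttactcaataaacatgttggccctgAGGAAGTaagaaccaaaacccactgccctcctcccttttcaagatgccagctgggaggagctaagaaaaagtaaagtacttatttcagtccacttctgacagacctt
Ctsg, chr14:56102575-56102824, minus strand: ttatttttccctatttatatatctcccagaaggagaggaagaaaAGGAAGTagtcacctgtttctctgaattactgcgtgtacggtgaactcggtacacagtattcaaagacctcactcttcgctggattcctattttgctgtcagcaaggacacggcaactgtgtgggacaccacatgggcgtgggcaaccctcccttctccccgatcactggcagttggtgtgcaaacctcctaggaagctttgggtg
The motif began 107 bases before the Ly6c2 start and 206 before the Ctsg start. On either strand it was in 8 of 11 windows of 9 genes looked up (Ccr2, F13a1, Ms4a6c, Ly6c2, Klf4, Mpo, Elane, Prtn3 and Ctsg), with none in the windows of Ccr2 and Klf4, and in 2525 of 32851 windows of the table, 7.69%. Some windows of 1 gene overlap. It was 1 of 8 motifs searched, overlaps others of them, and was chosen for display after the matches were seen. A match is a description of letters, not a binding site.

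Clustering the 3170 cells gave 10 clusters, described by number and leading genes because several follow a day or a mouse. Cluster 1, 559 cells, came only from day 2, and cluster 2, 544 cells, was 98.9% from day 1. Both were granule-rich, with 89.4% and 88.2% of cells dividing (at least 2 of 10 mitosis genes such as Mki67 and Top2a detected). Fn1 stood at 1.04 and 4.68 CPM in them and Lyz2 at 143 and 187 CPM, so these were progenitors, not mature monocytes. Cluster 3, 505 cells, had the monocyte end of the range: Lyz2 at 21670 CPM, Cx3cr1, the fractalkine receptor, at 268 CPM, and 7.13% of cells dividing. Its median depth was 2378 UMIs. Of its cells, 3 came from late rapamycin replicate 1, where it was 0.331% of monocytes, against 12.3 to 31.0% in the other 5 mice.

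Late rapamycin replicate 1 instead filled clusters 4 and 6. It gave 395 of the 440 cells of cluster 4 and 324 of the 330 cells of cluster 6. Cluster 4 was a dividing cluster led by BC018473, the interferon-induced membrane protein gene Ifitm1 at 1181 CPM and Fkbp11. Its Prtn3 level was 8783 CPM, with Csf1r at 26.0 CPM, Irf8 at 87.9 CPM and Fn1 at 0.812 CPM, so its cells lay on the granule side of the range. Csf1r and Irf8 were lower there than in any other cluster. The neutrophil marker Cebpe stood at 56.6 CPM, against 41.3 and 38.2 CPM in clusters 1 and 2. Whether the cells of cluster 4 were progenitors of monocytes or of neutrophils was not tested. Cluster 6 had Saa3, an acute-phase apolipoprotein, at 828 CPM, the proteoglycan Vcan at 940 CPM and the neutrophil alarmin S100a8 at 3645 CPM. It also had monocyte genes, with Lyz2 at 10140 CPM, Ctss at 1519 CPM and Fn1 at 1035 CPM. Against the other clusters together, 19 of 22 classical monocyte genes and 5 of 12 neutrophil markers were raised 2-fold in it. In cluster 3 the counts were 18 and 2. The share of all genes raised 2-fold was not counted, and the clusters were made from the same data. Late rapamycin replicate 1 had 35.8% of its monocytes there. Of all Saa3 UMIs in monocytes, 1258 of 1272 were from this mouse, as were 1437 of 1701 Vcan UMIs. Its Irf8 level of 129 CPM lay under the 335 to 403 CPM of the other 5 mice. With 1 mouse behind them, these clusters cannot be told apart from that mouse.

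The remaining clusters had members from every treatment, though 21 of the 29 cells of cluster 9 came from late rapamycin replicate 1. Cluster 7, 297 cells, had Klf4 at 259 CPM, Fn1 at 936 CPM and 93.6% of cells dividing. Cluster 5, 347 cells, was led by progenitor genes such as Dntt, Angpt1, Flt3 and Mecom. Cluster 8, 92 cells, had MHC class II genes, with H2-Aa at 2649 CPM, Cd74 at 7268 CPM and the lectin Cd209a at 439 CPM. Clusters 9 and 10 held 29 and 27 cells with markers of other lineages, Ngp at 11480 CPM and Camp at 11050 CPM in the former, Cd79a of B cells at 252 CPM in the latter. Doublets of cells from the same mouse were not removed.

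**Figure D2:**
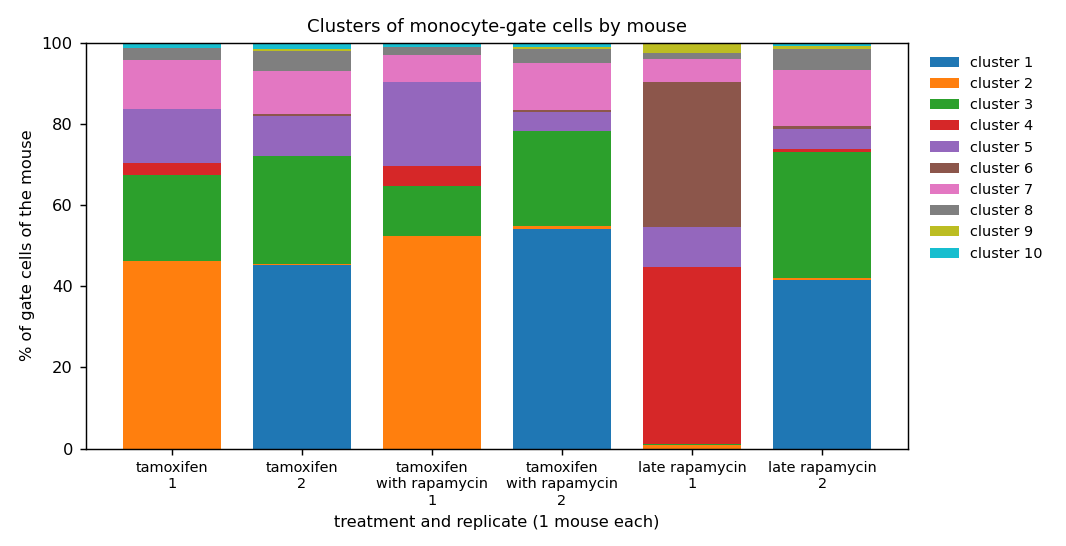
Share of each mouse's monocytes (y axis, %) in the 10 clusters (colours), with 1 bar per mouse. Cluster 1 fills 41.5 to 54.0% of the day 2 mice, cluster 2 fills 46.3 and 52.3% of the day 1 mice other than late rapamycin replicate 1, and that mouse holds 43.6% in cluster 4 and 35.8% in cluster 6.

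The first question of the design was whether the treatments changed how many monocytes were recovered. Tamoxifen mice had 8.72% (551 of 6320 kept cells) and 5.82% (345 of 5927), a mean of 7.27% ± 2.05 (SD, n = 2). Tamoxifen with rapamycin gave 8.48% (528 of 6229) and 7.12% (433 of 6083), 7.80% ± 0.961 (SD, n = 2). Late rapamycin gave 12.8% (906 of 7070) and 6.69% (407 of 6088), 9.75% ± 4.33 (SD, n = 2). The ranges of all 3 treatments overlapped. The 95% exact binomial interval ran from 12.0 to 13.6% in late rapamycin replicate 1 and from 6.07 to 7.34% in replicate 2, and such intervals cover counting error only.

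Adding rapamycin to tamoxifen moved the share by 0.528 percentage points, with -0.242 on the first day against 1.30 on the second (exact permutation p = 1, two-sided, n = 2 and 2). Late rapamycin exceeded tamoxifen by 2.48 points, with 4.10 between the first pair of mice, 0.864 between the second (exact permutation p = 0.667), and without late rapamycin replicate 1 the difference was -0.584. With every cell thinned to 1000 UMIs it was 0.89 points, and at 2000 UMIs, without shallower cells, 1.26 points. Late rapamycin replicate 1 then stood at 4.81 and 7.12%. Tamoxifen with rapamycin lay 1.95 points under late rapamycin, a difference of -1.95 (exact permutation p = 1), and 1.11 points over it without that mouse. With 2 mice against 2 the smallest p is 0.33, so no share could pass 0.05. The neutrophil-lineage cells of late rapamycin replicate 1 were also frequent, 26.6% of its kept cells against 8.56 to 11.4% in the other mice.

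**Figure D3:**
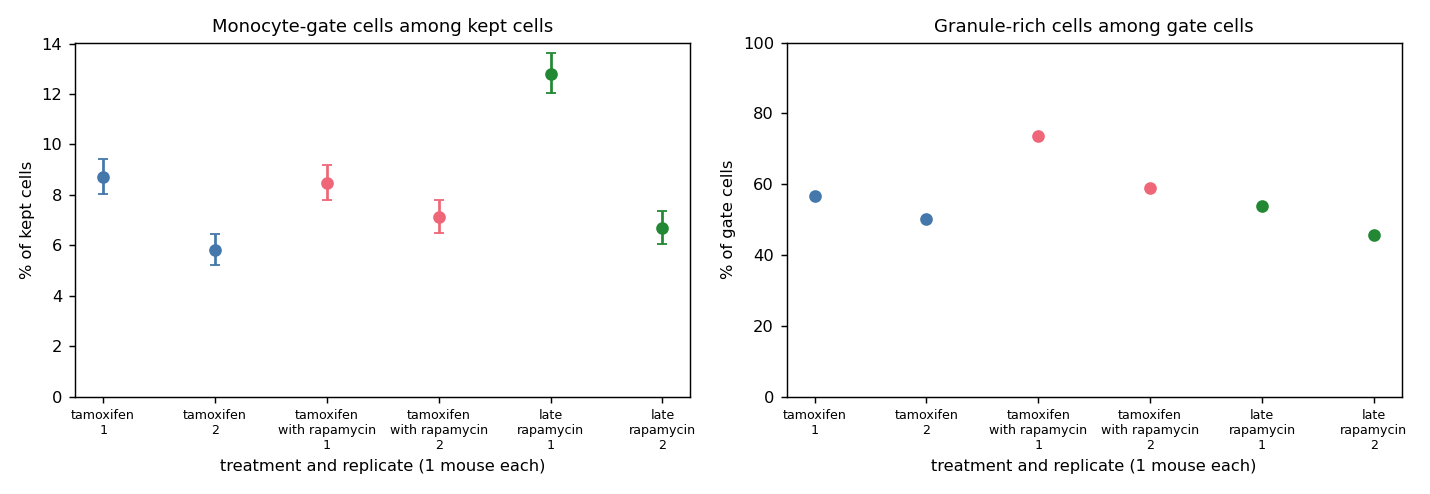
Monocyte share of kept cells with its exact binomial 95% interval (left, y axis in %) and granule-rich share of monocytes (right, y axis in %) in each mouse. Late rapamycin replicate 1 is the highest point on the left at 12.8%, and tamoxifen with rapamycin holds the highest points on the right at 73.7 and 58.9%.

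Within the monocytes, the balance between granule-rich and granule-poor cells was 56.8 and 50.1% granule-rich in tamoxifen mice, 73.7 and 58.9% in tamoxifen with rapamycin mice, and 53.9 and 45.7% in late rapamycin mice. Both tamoxifen with rapamycin mice lay above all other mice. The difference from tamoxifen was 12.8 points, with 16.9 for day 1 mice against 8.75 for day 2 mice, and that from late rapamycin 16.5 points, 19.8 and 13.2 (exact permutation p = 0.33 each, the smallest possible). After each cell was thinned to 2000 UMIs, tamoxifen replicate 1 stood at 67.8%, above tamoxifen with rapamycin replicate 2 at 60.0%, and the first difference was 9.05 points (exact permutation p = 0.667). The second was then 17.7 points with p still 0.33 by the exact permutation test.

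Progenitor-side cells, with at least 1 UMI of Kit, Cd34 or Flt3, made up 57.0 and 58.8% of monocytes in tamoxifen mice, 67.2 and 60.3% in tamoxifen with rapamycin mice, and 48.5 and 52.8% in late rapamycin mice. Late rapamycin mice were lowest before and after thinning, when they stood at 23.3 and 27.6% against 33.5 to 41.4% in the other 4 mice. Tamoxifen with rapamycin exceeded late rapamycin by 13.1 points, and by 12.1 points after thinning (exact permutation p = 0.33 in both). Its difference from tamoxifen fell from 5.84 points to 0.271 points after thinning. Of granule-rich cells 80.6% were progenitor-side, so both shares describe overlapping cells.

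Dividing cells were 72.2% of monocytes and 41.7% of the other kept cells, or 58.7% and 40.9% when thinned. They ranged from 59.0 to 83.1% between mice, with both extremes in late rapamycin. Of granule-rich cells 91.4% were dividing. The non-classical side, at least 2 of 10 genes such as Cx3cr1, Ace and Treml4, held 39.4 to 64.4% of a mouse's monocytes, and the MHC class II side 1.88 to 4.64%. After thinning to 2000 UMIs the treatment means of the non-classical side were 14.1 to 17.8%, against 45.8 to 55.4% before. Of granule-rich cells 49.7% were in it, so the class depends on depth and is not a count of non-classical monocytes. In 15 comparisons of these 5 classes no exact permutation p went below 0.33, so none passed after adjustment for number.

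The next question was which genes differed between treatments inside the monocytes. UMIs were summed over each mouse's monocytes, so more cells of a stage and more RNA per cell cannot be told apart. An edgeR quasi-likelihood fit of all 6 mice with the day as a block tested 10916 genes. The 3 comparisons share mice and are not independent of each other. Levels below are in the same CPM, not corrected for gene length.

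Tamoxifen with rapamycin against tamoxifen gave 1 called gene at an adjusted p under 0.05, lower, which is 0.00916% of the genes tested, and no gene called higher (0.0%), while 331 had an unadjusted p under 0.05 and DESeq2 called 4. That gene was Ifi202b (chr1:173962568-173982744, minus strand, GRCm38), of the interferon-inducible Ifi200 family of DNA-sensing proteins. It stood at 43.5 and 43.9 CPM in tamoxifen mice and at 0 in the other 4 mice. The UMIs behind these values were 132 and 108, in 106 of 551 and 89 of 345 cells, and no single cell held more than 4 of them. With a floor of 3 UMIs over the group, 0.448 CPM, the level was at least 97-fold lower in tamoxifen with rapamycin mice (edgeR adjusted p = 0.0275). Without tamoxifen with rapamycin replicate 1 the adjusted p was 0.0573 and without replicate 2 it was 0.0706, and without dividing cells 0.0877. The fitted change remained negative in all 3.

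Ifi202b was at least 150-fold lower in late rapamycin than in tamoxifen mice as well (floor 0.290 CPM, edgeR adjusted p = 0.0169), and it passed there without each mouse in turn. Within the tamoxifen mice granule-poor monocytes held it at 96.0 and 88.5 CPM and granule-rich monocytes at 25.6 and 26.9 CPM. Other kept cells of the same mice had 2.47 and 1.07 CPM. They had at most 0.0924 CPM in the remaining mice. Members of the Ifi200 family share sequence, and the strand used in counting is not given in the sources used here. Leaving aside Ifi202b, 10 other members were tested and none passed. Ifi205 stood at a log2 difference of -1.46 with rapamycin added and -2.31 for late rapamycin, both against tamoxifen, with edgeR adjusted p of 1 and 0.603.

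Late rapamycin against tamoxifen gave 4 called genes, 0.0366% of those tested, with 2 higher and 2 lower (0.0183% each). At an unadjusted p under 0.05 there were 890, and DESeq2 called 8. Without the day block 1 gene was called. Beside Ifi202b, 1 predicted gene model was lower. Plekha7 (chr7:116123485-116308376, minus strand), an adherens junction protein, stood at 0.329 and 1.22 CPM in tamoxifen mice, at 10.2 and 10.4 CPM in tamoxifen with rapamycin mice and at 12.0 and 17.0 CPM in late rapamycin mice. Both tamoxifen mice were below all others, on 1 and 3 UMIs. The log2 difference of late rapamycin from tamoxifen was 4.25 (SE 0.482, edgeR adjusted p = 0.0471), and it lost the call without either tamoxifen mouse, at adjusted p of 0.164 and 0.0799. It also lost it without either tamoxifen with rapamycin mouse, at adjusted p of 0.0546 and 0.0853. Other kept cells had 8.34 and 8.76 CPM in tamoxifen mice and 20.7 to 40.1 CPM elsewhere.

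Camp (chr9:109847379-109849617, minus strand), the cathelicidin of neutrophil secondary granules, was the other gene called higher. It stood at 30.3 and 48.0 CPM in tamoxifen mice, 64.6 and 172 CPM in tamoxifen with rapamycin mice, and 316 and 337 CPM in late rapamycin mice. In late rapamycin replicate 2, 5 cells held 899 of 951 Camp UMIs. The top cell held 118 of 221 and 466 of 565 UMIs in tamoxifen with rapamycin mice, and 82 of 118 in tamoxifen replicate 2. It held 20 of 92 in tamoxifen replicate 1 and 192 of 2378 in late rapamycin replicate 1. The log2 difference from tamoxifen was 3.17 (SE 0.314, edgeR adjusted p = 0.0222). Without the cells of clusters 8, 9 and 10, removed after seeing the data, it was 2.02 with an adjusted p of 0.580, and without tamoxifen replicate 2 the adjusted p was 0.0816. All 12 neutrophil markers stood above 0 in this comparison, with a median log2 difference of 1.97, or 0.46 without late rapamycin replicate 1, and Camp was the 1 member called.

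Tamoxifen with rapamycin against late rapamycin gave 0 called genes in edgeR, 0.0% of 10916, with 899 at an unadjusted p under 0.05 and 19 called by DESeq2. Ctse (chr1:131638306-131675505, plus strand), the aspartic protease cathepsin E, had the smallest p there. It stood at 41.5 and 57.4 CPM in tamoxifen with rapamycin mice, at 12.8 and 15.9 CPM in tamoxifen mice and at 14.2 and 20.6 CPM in late rapamycin mice, so both tamoxifen with rapamycin mice were above all others. The log2 difference was 1.49 from late rapamycin (SE 0.173, edgeR adjusted p = 0.171) and 1.79 from tamoxifen (SE 0.188, adjusted p = 0.0524). Both missed the threshold, while DESeq2 gave adjusted p of 0.0313 and 0.00627. In other kept cells Ctse was 199 and 209 CPM with tamoxifen and rapamycin, and 74.4 to 164 CPM in the rest.

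Galnt9 (chr5:110544355-110621380, plus strand), a transferase that starts O-linked glycosylation, was found mostly in granule-poor monocytes, with at most 0.513 CPM in the granule-rich monocytes of any mouse. Granule-poor cells had 51.9 and 47.2 CPM in tamoxifen mice, 0 and 1.44 CPM in tamoxifen with rapamycin mice, and 17.8 and 42.6 CPM in late rapamycin mice. Other kept cells had at most 0.142 CPM in every mouse. Over all monocytes there were 40 and 32 UMIs in tamoxifen mice, 0 and 1 with rapamycin added, and 37 and 38 in late rapamycin mice. The log2 difference from tamoxifen was -6.21 (SE 0.789, edgeR adjusted p = 0.112), which missed the threshold, while DESeq2 gave an adjusted p of 0.0450. Eif3j2, a copy of a translation initiation factor subunit, was 18.4 and 18.3 CPM in tamoxifen with rapamycin mice against 0.659 to 3.46 CPM in the other 4 (edgeR adjusted p = 0.112 against tamoxifen). The same 2 mice had 14.2 and 16.4 CPM of it in other cells, against 1.39 to 2.03 CPM.

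**Figure D4:**
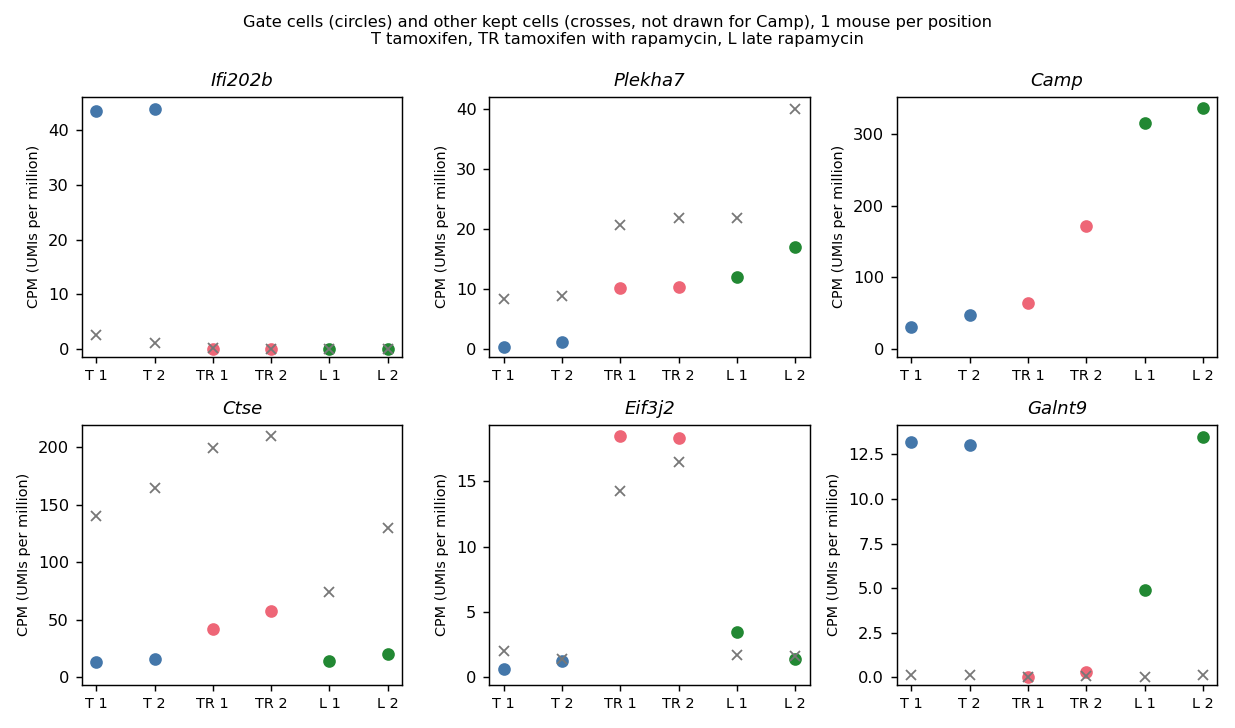
CPM of 6 genes (y axes, linear, each panel with its own scale) in the monocytes of each mouse (circles) and in its other kept cells (crosses, not drawn for Camp); T is tamoxifen, TR tamoxifen with rapamycin and L late rapamycin. Ifi202b is at 0 in the monocytes of the TR and L mice, Plekha7 is lowest in the T mice in both kinds of cells, and Ctse and Eif3j2 are highest in the TR mice.

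The number of calls changed most when a late rapamycin mouse was left out, and the cause was not tested. Without late rapamycin replicate 1 there were 96 calls for tamoxifen with rapamycin against tamoxifen, 24 for late rapamycin against tamoxifen and 64 for tamoxifen with rapamycin against late rapamycin. Without late rapamycin replicate 2 the counts were 94, 2132 and 1796. Leaving out a tamoxifen mouse gave 2 and 6 calls in the first comparison and 16 and 0 in the last. Leaving out tamoxifen with rapamycin replicate 1 gave 6 calls in the second, and replicate 2 gave 2 in the first and 2 in the last. When 1 mouse of a treatment was left, it was assumed to vary like the others.

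Gene lists of the lineage were described by their median log2 difference, beside a median within 0.02 of 0 over all 10916 genes. In tamoxifen with rapamycin against tamoxifen, 5 of 22 classical monocyte genes stood above 0, with a median of -0.41 and no call. The same 22 genes had a median of 0.41 in late rapamycin against tamoxifen, 19 above 0, and of -0.74 in tamoxifen with rapamycin against late rapamycin, 3 above 0. Without late rapamycin replicate 1 the medians were -0.41, 0.14 and -0.60. In granule-poor cells alone they were -0.00, 0.24 and -0.25, beside the granule-rich shares given above.

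S100a4 was 242 and 297 CPM in tamoxifen mice, 122 and 227 CPM in tamoxifen with rapamycin mice and 180 and 380 CPM in late rapamycin mice. Ctss was 249 and 284 CPM, 137 and 235 CPM, and 348 and 372 CPM in the same order. Both genes were lower in each tamoxifen with rapamycin mouse than in each tamoxifen mouse. Neither passed in any comparison, with edgeR adjusted p of 1 for both against tamoxifen and of 0.427 for S100a4 and 0.227 for Ctss against late rapamycin. Vcan and the chitinase-like Chil3 had log2 differences of 2.79 and 2.19 in late rapamycin against tamoxifen (edgeR adjusted p = 0.603), and 1437 of all 1701 Vcan UMIs were from late rapamycin replicate 1.

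Of 18 granulocyte-monocyte progenitor genes, 14 stood above 0 in tamoxifen with rapamycin against tamoxifen, 5 in late rapamycin against tamoxifen and 13 in tamoxifen with rapamycin against late rapamycin. Their medians were 0.13, -0.17 and 0.19 with no call, and -0.14, -0.30 and 0.04 in granule-poor cells. Mpo, Elane and Prtn3 are in this list and also set the granule-poor class, so the latter medians are not independent of that choice. In late rapamycin against tamoxifen Mpo stood at a log2 difference of -0.38, Kit at -0.55 and the receptor gene Flt3 at -0.65 (edgeR adjusted p = 0.603 each). Prtn3, the proteinase 3 of primary granules, stood at 3923 and 3871 CPM in tamoxifen mice, 5552 and 4767 CPM in tamoxifen with rapamycin mice and 6324 and 4556 CPM in late rapamycin mice. Tamoxifen mice were lowest, with an edgeR adjusted p of 1 and 0.603 for the other 2 treatments against them. The 14 tested non-classical genes had medians of -0.14, -0.28 and 0.17, and the 10 MHC class II genes medians of -0.26, -0.49 and 0.16, in the same order of comparisons, with no call. In granule-poor cells the medians were 0.14, -0.56 and 0.60 for the non-classical genes and 0.19, -0.69 and 0.78 for MHC class II, so both lists changed sign in the first comparison. Of 17 tested monocyte transcription factors, 4, 11 and 6 stood above 0 and none passed.

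Cell cycle and mTOR genes were near the background. The 30 S phase genes had medians of 0.00, 0.06 and -0.05, the 24 mitosis genes 0.03, 0.08 and -0.01, and the 25 tested mTOR components -0.01, -0.03 and -0.09. None of these genes was called in any comparison. Mtor itself, the kinase rapamycin inhibits through a complex with Fkbp1a, was 47.5 and 36.6 CPM in tamoxifen mice, 39.6 and 36.1 CPM in tamoxifen with rapamycin mice and 38.5 and 39.1 CPM in late rapamycin mice after TMM scaling. The ranges of the 3 treatments overlapped. The RNA level of a kinase does not measure its activity.

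No cholesterol synthesis gene was called. Of 23, 19 stood above 0 with rapamycin added and 22 for late rapamycin, both against tamoxifen, with medians of 0.32 and 0.34, the latter 0.17 without late rapamycin replicate 1. Mvk, mevalonate kinase, was 6.55 and 8.44 CPM after TMM scaling in tamoxifen mice, 16.7 and 16.5 CPM with rapamycin added and 13.5 and 10.7 CPM in late rapamycin mice. Both tamoxifen mice were lowest (edgeR adjusted p = 1 and 0.603). The 36 tested interferon response genes had medians of -0.11, 0.14 and -0.08, or -0.10, 0.31 and -0.50 without late rapamycin replicate 1.

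**Figure D5:**
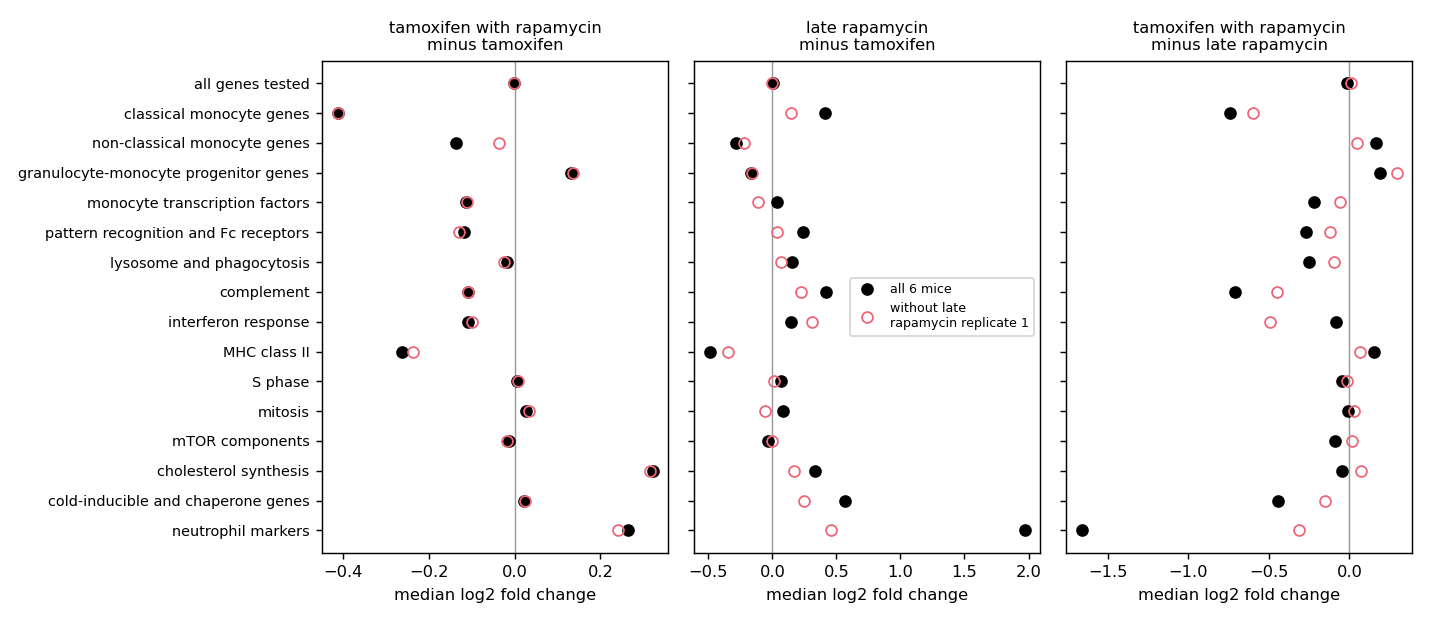
Median log2 difference of each gene list (x axis, each panel with its own scale) in the 3 comparisons, for all 6 mice (filled) and without late rapamycin replicate 1 (open). The classical monocyte genes lie at -0.41, 0.41 and -0.74, and the neutrophil markers move from 1.97 to 0.46 in the middle panel without that mouse.

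Treatment differences in monocytes were tested against those in the 4933 neutrophil-lineage cells of the same mice, as an interaction over 11231 genes. With no other cells in it, the interaction cannot show that a difference was particular to monocytes. The neutrophil-lineage cells lay outside the chosen cells and had at least 2 UMIs each of at least 3 of Fcnb, Cebpe, Ngp, Camp, Ltf and Lcn2. These 6 genes set the comparison cells, so the Camp values below are no test of whether its difference is particular to monocytes. Tamoxifen with rapamycin against tamoxifen gave 2 genes (0.0178%), late rapamycin against tamoxifen 1 (0.0089%) and tamoxifen with rapamycin against late rapamycin 4 (0.0356%). Ctse, Plekha7 and Camp were not among them. Camp had a log2 interaction of 3.72 for late rapamycin against tamoxifen (edgeR adjusted p = 0.0640, or 0.0424 with DESeq2 size factors). Ctse had 1.29 for tamoxifen with rapamycin against tamoxifen (edgeR adjusted p = 1), which passed without either late rapamycin mouse (0.0445 and 0.0235). For Ifi202b, at 0 in the monocytes of 4 mice and near 0 in most other cells, the interaction gave no usable test, and whether its difference is particular to monocytes was not tested. Gatm, which makes the creatine precursor guanidinoacetate, was called in the last comparison with a log2 interaction of 1.31 (edgeR adjusted p = 0.0280). The adjusted p was 0.0562 and 0.0542 without either tamoxifen mouse and 0.763 and 0.223 without either tamoxifen with rapamycin mouse, all on the other side of the threshold. Without late rapamycin replicate 1 it was 0.0136. In monocytes it was 99.4 and 100.4 CPM in tamoxifen mice, 187 and 179 CPM in tamoxifen with rapamycin mice and 184 and 85.5 CPM in late rapamycin mice. In neutrophil-lineage cells it was 64.4 and 83.4, 72.3 and 60.4, and 169 and 76.4 CPM.

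Tppp3 (chr8:105467493-105471526, minus strand), whose promoter drives the Cre in these mice, was rare. Monocytes held 23 UMIs in 17 of 3170 cells, and the other kept cells 70 UMIs in 66 of 34547 cells. The level was 0.329 and 0.813 CPM in tamoxifen mice, 0.585 and 2.14 CPM in tamoxifen with rapamycin mice and 0.399 and 2.84 CPM in late rapamycin mice. It was higher on day 2 in each treatment, on counts of 1 to 8 UMIs per mouse, and the treatments overlapped. Granule-poor monocytes held 22 of the 23 UMIs, and cluster 3 held 14 of them in 10 cells. Tppp3 was too low to be tested between treatments.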

How the data were processed

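Cells from 6 mice were run as 2 libraries, 1 per day, with a hashtag per mouse. The deposited matrices hold UMI counts per gene and hashtag, not normalized. Cell Ranger 7.0.0 and mm10 are named per the submitters' processing notes, and version 8.0.1 per the file headers; intron counting is not given in the sources used here. Cells with at least 500 genes, 1000 gene UMIs, at most 10% mitochondrial UMIs and a leading hashtag of at least 80% were kept, 19619 and 18098 per day. Hashtag mixtures were removed by that limit, and no other doublet caller was run. Counts were summed per mouse and tested in edgeR 4.0.16 (TMM, filterByExpr, quasi-likelihood, day as a block, Benjamini-Hochberg over all genes, 0.05), with DESeq2 1.42.0 as an alternative. The common biological coefficient of variation was 0.13 with 2 residual degrees of freedom. The labels name each day as a batch holding 1 mouse of each treatment, so replicate numbers pair the mice; same-day deviations correlated at 0.145 to 0.192 over genes. Shares were compared by exact permutation. Clusters came from scanpy 1.11.5 (1500 variable genes, 20 components, 15 neighbours, Leiden resolution 0.5, day means removed, without cell cycle and choice genes). The fits were tested on simulated data. Exact intervals and floors take in only counting error. The members, the 32 gene lists and the sub-classes were chosen with earlier results of these data known. Genes were named as the genes of the rule and Tppp3, up to 10 called in each direction per comparison, up to 10 more by smallest p as values, up to 4 per list, and the 25 leading genes of the chosen cells. Predicted models were counted, not named. Of the listed genes 6 were not analysed here. Gene positions are from GENCODE for GRCm38. Alternatives were other marker numbers, hashtag and depth limits, thinning, scalings, filters, cell subsets and leaving out each mouse.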

Additional observations from a re-analysis of the deposited data

Results flagged for a closer look

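Of the treatment differences tested between monocytes and neutrophil-lineage cells, 7 passed at an edgeR adjusted p under 0.05. Iglc1, an immunoglobulin light chain gene, had a log2 interaction of -8.85 for tamoxifen with rapamycin against tamoxifen (edgeR adjusted p = 0.00085), and 718 of its 721 monocyte UMIs in tamoxifen replicate 1 lay in 1 cell. Without that mouse the interaction was -3.90 (edgeR adjusted p = 1), and without either tamoxifen with rapamycin mouse the adjusted p was 0.0528 and 0.311. Prss34, a basophil and mast cell protease, had -13.89 in the same comparison (edgeR adjusted p = 0.00085), with 160 of its 162 monocyte UMIs of tamoxifen replicate 2 in 1 cell. Without that mouse it was -6.20 and without tamoxifen with rapamycin replicate 1 it was -3.10 (edgeR adjusted p = 1 each). It had -8.41 for tamoxifen with rapamycin against late rapamycin (edgeR adjusted p = 0.0207), where 156 UMIs came from the neutrophil-lineage cells of tamoxifen with rapamycin replicate 1. Without that mouse it turned to 2.36 (edgeR adjusted p = 0.981), and without late rapamycin replicate 1 the adjusted p was 1. Hbb-bs, a beta-globin gene, had -4.00 for late rapamycin against tamoxifen (edgeR adjusted p = 0.0418), with 407 of 417 monocyte UMIs of tamoxifen replicate 1 in 1 cell. It had 4.97 for tamoxifen with rapamycin against late rapamycin (edgeR adjusted p = 0.0207). The former had an edgeR adjusted p of 1 and 0.0909 without either tamoxifen mouse and of 0.129 and 0.126 without either tamoxifen with rapamycin mouse, and the latter 0.0681 and 0.560 without either tamoxifen with rapamycin mouse. The alpha-globin gene Hba-a1 had 5.62 in the last comparison (edgeR adjusted p = 0.0207), where late rapamycin neutrophil-lineage cells carried 110 and 309 UMIs against 7 and 9 in monocytes. Its adjusted p was 0.0681 and 0.327 without either tamoxifen with rapamycin mouse. In the last comparison Hbb-bs and Hba-a1 each had an adjusted p of 0.0562 and 0.0542 without either tamoxifen mouse. Gatm had 1.31 there (edgeR adjusted p = 0.0280). In monocytes Gatm was 184 CPM in late rapamycin replicate 1 and 85.5 CPM in replicate 2, and the neutrophil-lineage cells of replicate 1 were also the highest of the 6 mice, at 169 CPM.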

How the results depend on the processing

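Without the replicate block (the pairing by day) late rapamycin against tamoxifen called 1 gene in place of 4, and the other comparisons kept 1 and 0. The share difference between both tamoxifen treatments reversed to -0.175 points when cells were thinned to 1000 UMIs and to -0.777 among cells without a Kit UMI, and the MHC class II difference between tamoxifen with rapamycin and late rapamycin to -0.0433 when thinned. Alg8 reversed to -0.048 without dividing cells in late rapamycin against tamoxifen. For tamoxifen with rapamycin against tamoxifen, calls were 19 with no low-count filter, 3 with at least 4 markers, 3 without cells with other lineage markers, 3 without clusters 4 and 6 (chosen after seeing the data), 4 in DESeq2 and 0 without dividing cells (177 at an unadjusted p under 0.05). For late rapamycin against tamoxifen they were 135 with no filter, 8 in DESeq2, 1 without granule-rich cells, 2 without clusters 8, 9 and 10 (chosen after seeing the data) and 0 without dividing cells (447 unadjusted). For tamoxifen with rapamycin against late rapamycin they were 210 with no filter, 2 without cells with other lineage markers, 2 without clusters 4 and 6 and 19 in DESeq2. With DESeq2 size factors the interaction for late rapamycin against tamoxifen called 4 genes, not 1. The cause of these shifts was not tested.

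Leaving out each mouse in turn, in the order tamoxifen with rapamycin minus tamoxifen, late rapamycin minus tamoxifen, and tamoxifen with rapamycin minus late rapamycin, gave share differences of -0.921 to 1.98, -0.584 to 5.54 and -5.02 to 1.11 points. Calls ran from 1 to 96, 4 to 2132 and 0 to 1796, and interaction calls from 0 to 9, 0 to 523 and 0 to 684. Dividing shares differed by 1.74 to 11.6, -6.53 to 17.6 and -10.9 to 13.2 points, progenitor-side by 2.36 to 9.31, -9.46 to -5.09 and 9.64 to 16.6, and granule-rich by 5.42 to 20.2, -7.78 to 0.385 and 9.11 to 23.9. The non-classical side differed by -0.505 to 18.7, 0.695 to 18.6 and -10.2 to 9.01 points, and the MHC class II side by -1.79 to 0.708, -1.80 to 0.251 and -1.01 to 1.48. Among single genes under the other settings, 249 values kept their direction and side of the threshold, 45 newly passed it, 12 no longer passed and 1 reversed. Of these genes only Ifi202b, Camp and Plekha7 passed in the main fit, so most of the 249 had not passed before either. Only these genes could stop passing. Genes with few UMIs, such as Plekha7, Galnt9 and Tppp3, are limited by depth.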

Other observations

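No cold-inducible or chaperone gene was called in monocytes. In late rapamycin against tamoxifen, 10 of 12 tested stood above 0, with a median log2 difference of 0.56, or 0.25 without late rapamycin replicate 1. In the fit of all 6 mice, 9 of the 12 had an unadjusted p under 0.05, beside 890 of all 10916 genes tested. The 2 below 0 were the cold-inducible RNA-binding protein genes Rbm3, at a log2 difference of -0.54 (edgeR adjusted p = 0.603), and Cirbp. Cirbp stood at 55.3 and 55.7 CPM in tamoxifen mice, 46.5 and 48.8 CPM in tamoxifen with rapamycin mice and 24.98 and 29.1 CPM in late rapamycin mice. Both late rapamycin mice lay below the others (log2 difference -1.01, edgeR adjusted p = 0.204). The same order held in other kept cells, where Cirbp was 30.0 and 42.3 CPM in late rapamycin mice and 63.1 to 67.3 CPM elsewhere. The stress-inducible chaperone gene Hspa1b was lowest in tamoxifen with rapamycin mice, 2.64 and 6.43 CPM after TMM scaling, against 18.7 to 27.2 CPM in the other 4 mice (edgeR adjusted p = 0.568 against tamoxifen and 0.208 against late rapamycin).

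Receptors and complement genes of monocytes were also measured. Fcgr1, the high-affinity IgG receptor, had a log2 difference of 1.49 in late rapamycin against tamoxifen (edgeR adjusted p = 0.294), at 22.5 and 17.3 CPM after TMM scaling in late rapamycin mice and 5.63 to 9.39 CPM in the other 4. All 6 tested complement genes stood above 0 in that comparison, with a median of 0.42, or 0.22 without late rapamycin replicate 1, and none was called.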
